A study of Mus musculus with 23 samples.

Results

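The interferon-stimulated genes measured here are 46 genes that cells switch on when an interferon binds its receptor. They were taken by symbol from a fixed list, which was chosen with earlier results of these data known. All 46 are among the 24062 genes listed for each library. All 46 also passed the filter on low counts that left 14196 genes for testing. The samples are livers of 23 mice of mixed B6/129 strain, and each mouse gave 1 library of polyA RNA read by single-end RNA sequencing. Mice were wild type (WT) or knockout (KO) for Ehhadh, which encodes a bifunctional enzyme of peroxisomal fatty acid oxidation, and received saline or L-AC, an agent that the labels give only by these letters. On saline were 7 WT mice (aged 29 to 45 weeks) and 5 KO mice (31 to 44). On L-AC were 6 WT mice (28 to 44) and 5 KO mice (28 to 38). Dose, length of treatment, sex and the deleted stretch of Ehhadh are not given in the labels used here.

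Type I and type III interferons signal through Jak1 and Tyk2 to a complex that holds Stat2 and Irf9 and binds a promoter element called the interferon-stimulated response element (ISRE). Type II interferon signals through Jak1 and Jak2 to factors that bind the gamma-activated sequence (GAS). The genes so induced encode sensors of foreign RNA and DNA, enzymes and traps that stop virus growth, GTPases that attack the vacuoles of intracellular microbes, and parts of the machinery that presents antigens. In liver, hepatocytes, Kupffer cells and endothelial cells can all respond to interferon, so bulk RNA holds the sum of their responses. In such samples fewer cells of a type and less RNA per cell cannot be told apart.

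The libraries held 24521896 to 48095959 counted reads. Ehhadh itself, read first as a check of the labels, ran from 634.8 to 1635 CPM (counts scaled to the size of the library) in WT mice on saline and from 90.9 to 253 CPM in KO mice on saline. It ran from 10260 to 14650 CPM in WT mice on L-AC and from 1421 to 2144 CPM in KO mice on L-AC, so within a treatment no KO library reached a WT library. The 5 hepatocyte markers summed to between 27040 and 61620 CPM in every library, as the tissue label says. Under L-AC, 53.3% of all genes tested changed in WT mice and 48.8% in KO mice.

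L-AC was accompanied by lower interferon-stimulated genes in both genotypes. In WT mice 42 of the 46 fell and 0 rose, beside 26.7% of all genes tested that fell and 26.6% that rose. In KO mice 30 of the 46 fell and 0 rose, beside 23.6% and 25.2% of all genes tested. The median log2 fold change of the 46 was -1.25 in WT mice and -1.11 in KO mice, and the median of all genes tested was -0.01 in both. A gene was called when the Benjamini-Hochberg adjusted p of edgeR's quasi-likelihood test over all genes was under 0.05. By the fitted fold change, 31 members were lower by more than 2-fold in WT mice, beside 8.28% of all genes tested, and 5 by more than 4-fold, beside 1.7%. In KO mice 25 were lower by more than 2-fold, beside 8.95%, and 2 by more than 4-fold, beside 1.79%. For 20 members every WT mouse on L-AC lay below every WT mouse on saline, beside 12.1% of all genes tested, and for 22 members this held in KO mice, beside 15.5%. Together the 46 genes held a median of 0.114% of a library's reads in WT mice on saline, 0.112% in KO mice on saline, 0.0604% in WT mice on L-AC and 0.062% in KO mice on L-AC.

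**Figure D1:**
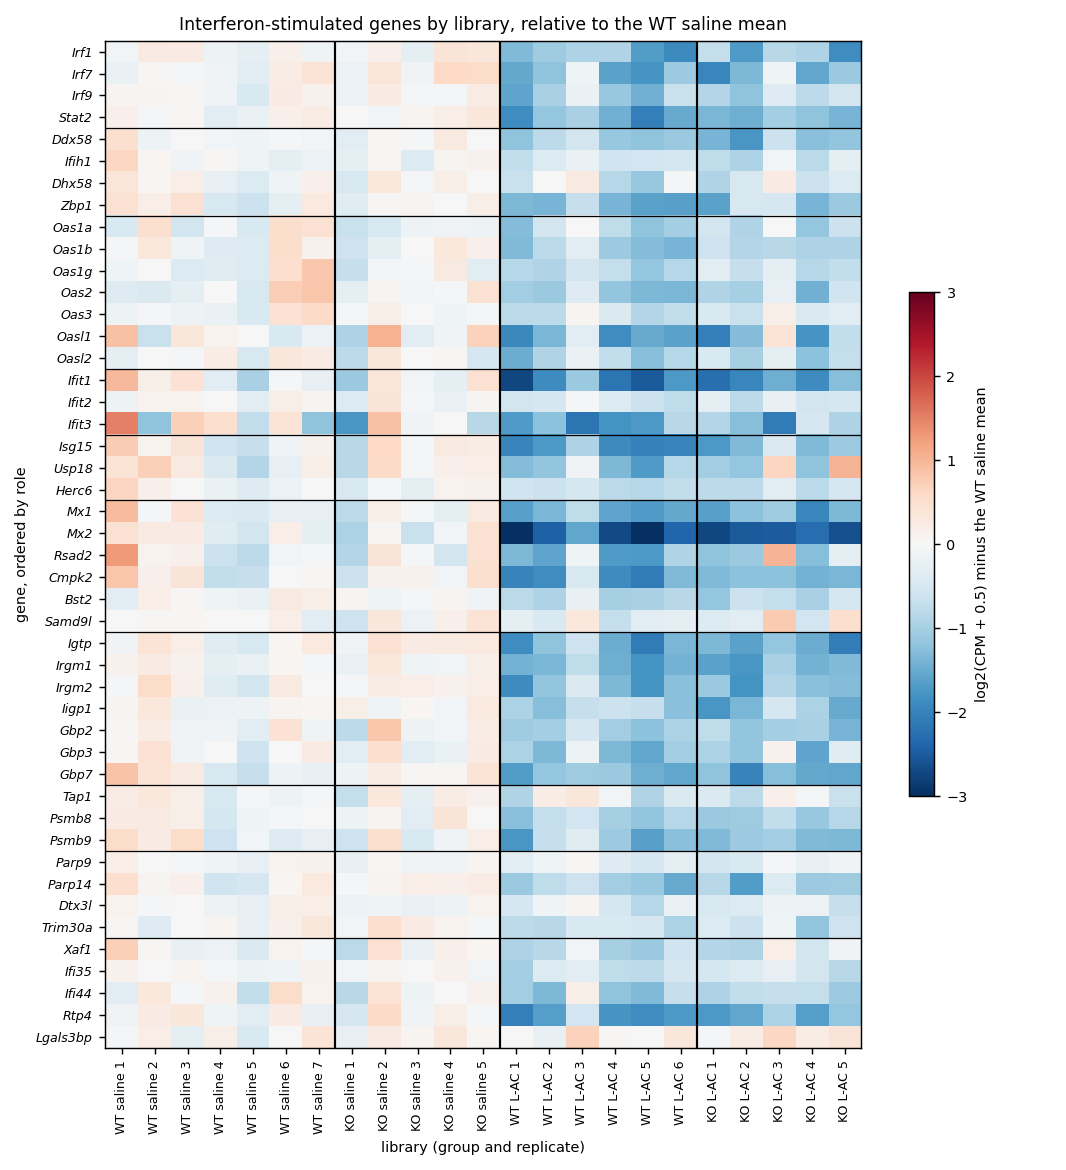
Level of each of the 46 genes in each of the 23 libraries, as log2(CPM + 0.5) minus the mean of the WT mice on saline; blue is lower and red is higher, black lines divide groups and roles, and the color scale ends at -3 and 3. The L-AC columns are blue over most rows, palest in the columns of WT L-AC 3 and KO L-AC 3.

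Some markers of several cell types also changed under L-AC. Of all genes tested, 26.7% fell and 26.6% rose in WT mice, and 23.6% fell and 25.2% rose in KO mice. Of the 10 Kupffer cell and macrophage markers tested, 7 fell and 1 rose in WT mice, and 3 fell and 1 rose in KO mice, with a median log2 fold change of -0.71 in each genotype. Their summed level ran from 92.4 to 312 CPM in WT mice on saline, from 119 to 232 CPM in KO mice on saline, from 72.7 to 136 CPM in WT mice on L-AC and from 63.8 to 195 CPM in KO mice on L-AC. None of them was at 0 reads in any library. The one that rose was Cd68, a lysosomal protein of macrophages, with a log2 fold change of 1.499 (SE 0.40) in WT mice and 2.27 (SE 0.47) in KO mice. Ptprc, the CD45 antigen of all leukocytes, fell by 0.80 (SE 0.27) in WT mice and by 0.83 (SE 0.31) in KO mice on the log2 scale. All 4 B cell markers fell in WT mice (median -1.37), and 1 of 4 fell in KO mice (median -1.20), at summed levels of at most 7.93 CPM. In KO mice the share that fell, 30% of macrophage and 25% of B cell markers, was near that of all genes tested. Of 2 plasmacytoid dendritic cell markers, Ccr9 fell in both genotypes and Siglech did not pass the test in either, at summed levels of at most 0.979 CPM. Of 8 markers of T and NK cells 2 were tested, and in each genotype Cd3e rose and Cd4 fell, at summed levels of at most 3.32 CPM. The 2 neutrophil markers tested did not pass the test in either genotype. Among the 5 hepatocyte markers, Alb and Ttr, both secreted plasma proteins, fell in WT mice (-0.43 and -0.62 on the log2 scale) and in KO mice (-0.65 and -0.86), and Hnf4a, a transcription factor, fell in KO mice (-0.41). The hepatocyte markers summed to 47260 to 57330 CPM in WT mice on saline, 50850 to 61620 CPM in KO mice on saline, 37310 to 47030 CPM in WT mice on L-AC and 27040 to 47810 CPM in KO mice on L-AC. Of 5 endothelial markers, Clec4g fell in both genotypes (-0.41 and -0.44) and Stab2 in KO mice (-0.29). Their sum ran from 108.5 to 186.5 CPM in WT mice on saline, from 133.7 to 173.3 CPM in KO mice on saline, from 128.9 to 162.3 CPM in WT mice on L-AC and from 120.6 to 147.2 CPM in KO mice on L-AC. Of 4 stellate cell markers, Dcn rose in both genotypes (0.55 and 0.45) and Reln in WT mice (0.43). Their sum ran from 95.79 to 164.2 CPM in WT mice on saline, from 73.99 to 184.8 CPM in KO mice on saline, from 160.2 to 202.2 CPM in WT mice on L-AC and from 139.5 to 183.6 CPM in KO mice on L-AC. None of the 4 cholangiocyte markers passed the test. The part of any of these cells in the fall of the interferon-stimulated genes was not tested.

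The promoters of some members hold the letters of the elements that interferon signaling acts on. RefSeq promoter windows on GRCm38.p6, from 250 bases before to 50 bases after a transcript's start, were at hand for 35 of the 46 genes. The ISRE core was searched as GAAA, any 2 bases and GAAA, and the GAS core as TTC, any 3 bases and GAA, on both strands and with overlapping matches counted. The ISRE core was in a window of 18 of the 35 members (51.4%), and in 3.99% of all 27025 genes with a window (3.44% of 32851 windows). The GAS core was in a window of 9 of the 35 (25.7%), and in 9.55% of all genes (8.3% of windows). Neither core was in a window of 13 of the 35. A match is a match of letters and not a measured binding site. The 120 bases before the start are shown for genes whose values are described next, which differ in which core they hold. Capitals mark matches to either core, and each line reads 5′ to 3′ on the strand of the gene.
Isg15, chr4:156200819-156200938, minus strand, 3 overlapping ISRE cores: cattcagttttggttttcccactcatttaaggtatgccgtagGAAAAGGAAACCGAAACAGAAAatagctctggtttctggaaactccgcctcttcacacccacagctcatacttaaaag
Ifit1, chr19:34640769-34640888, plus strand, 2 ISRE cores: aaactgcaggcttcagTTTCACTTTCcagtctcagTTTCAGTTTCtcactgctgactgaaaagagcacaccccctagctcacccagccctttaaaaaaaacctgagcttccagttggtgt
Oas1a, chr5:120907526-120907645, minus strand, 1 GAS core and 2 overlapping ISRE cores: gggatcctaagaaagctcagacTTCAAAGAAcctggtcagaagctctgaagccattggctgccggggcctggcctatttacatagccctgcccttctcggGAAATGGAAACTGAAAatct
Oas1g, chr5:120887614-120887733, minus strand, 2 overlapping ISRE cores: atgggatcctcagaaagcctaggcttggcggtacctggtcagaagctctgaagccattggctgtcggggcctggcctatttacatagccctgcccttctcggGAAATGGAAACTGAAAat
Irgm1, chr11:48871421-48871540, minus strand, 2 overlapping ISRE cores: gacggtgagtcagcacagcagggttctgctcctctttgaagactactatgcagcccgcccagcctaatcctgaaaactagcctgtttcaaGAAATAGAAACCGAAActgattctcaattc
Gbp7, chr3:142530216-142530335, plus strand, 2 GAS cores and 1 ISRE core: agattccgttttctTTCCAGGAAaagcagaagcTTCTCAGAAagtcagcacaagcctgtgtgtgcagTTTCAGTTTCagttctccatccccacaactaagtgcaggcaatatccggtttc
Irf1, chr11:53769894-53770013, plus strand, 1 GAS core: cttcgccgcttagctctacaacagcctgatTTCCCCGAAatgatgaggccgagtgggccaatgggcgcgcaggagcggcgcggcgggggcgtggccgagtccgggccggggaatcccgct

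Members with and without the ISRE core both fell under L-AC. Of all genes tested, 26.7% fell in WT mice and 23.6% in KO mice. Of the 18 with the core, 18 fell in WT mice and 12 in KO mice, with a median log2 fold change of -1.36 in WT and -1.17 in KO. Of the 17 with a window and no core, 14 fell in WT mice and 10 in KO mice, with medians of -0.99 and -0.70. The 11 members that had no window in the table were Dhx58, Zbp1, Oas1b, Oas2, Usp18, Mx1, Mx2, Iigp1, Parp9, Parp14 and Rtp4, and 10 of these fell in WT mice and 8 in KO mice.

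The transcription factors of the pathway fell as a group, with 4 of 4 lower in each genotype. Counts by role here and below stand beside 26.7% of all genes tested that fell in WT mice and 23.6% in KO mice. Stat2, a part of the complex that binds the ISRE, ran from 61.8 through a median of 81.05 to 90.5 CPM in WT mice on saline and from 18.4 through 27.7 to 39.2 CPM in WT mice on L-AC. In KO mice it was 77.0, 73.2, 82.8, 89.0 and 98.9 CPM on saline and at 29.7, 27.9, 37.9, 33.3 and 29.5 CPM on L-AC. Every L-AC mouse lay below every saline mouse in both genotypes. The log2 fold change of Stat2 was -1.48 (SE 0.14, adjusted p = 2.45e-08) in WT mice and -1.41 (SE 0.16, adjusted p = 3.43e-07) in KO mice. Irf1, a factor induced strongly by type II interferon, had the GAS core and no ISRE core in its window. Its level ran from 20.01 through 23.0 to 29.5 CPM in WT mice on saline and from 6.15 through 10.4 to 12.9 CPM in WT mice on L-AC. The KO mice had 23.2, 27.2, 20.4, 32.2 and 30.9 CPM on saline and 14.6, 7.22, 13.5, 12.6 and 6.39 CPM on L-AC. The groups did not overlap, and the log2 fold change of Irf1 was -1.31 (SE 0.20) in WT mice and -1.30 (SE 0.22) in KO mice. Irf9, the DNA-binding part of the ISRE complex, and Irf7, which amplifies production of interferon alpha, make up the other members of the group. The range over the 4 genes was -1.48 to -0.96 in WT mice and -1.41 to -0.80 in KO mice.

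Of the 4 sensors of nucleic acids, 3 fell in each genotype. Ddx58 encodes RIG-I, which detects viral RNA ends in the cytosol. It ran from 18.2 through 19.3 to 28.3 CPM in WT mice on saline and from 8.50 through 9.04 to 13.7 CPM in WT mice on L-AC. Levels in KO mice were 15.9, 20.8, 19.7, 24.8 and 20.2 CPM on saline and 7.40, 5.67, 12.8, 8.19 and 8.64 CPM on L-AC, with no overlap in either genotype. Its log2 fold change was -1.03 (SE 0.16) in WT mice and -1.25 (SE 0.18) in KO mice. The other sensors that fell were Ifih1 (MDA5, a sensor of long double-stranded RNA) and Zbp1, a sensor of Z-form nucleic acid. Dhx58, which encodes LGP2, a regulator of both RNA sensors, did not pass the test (log2 fold change -0.36, adjusted p = 0.175 in WT and -0.42, adjusted p = 0.172 in KO).

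OAS enzymes that sense double-stranded RNA make short chains of adenylate that activate RNase L, and the family also holds relatives such as Oasl1 with other antiviral roles. All 7 members fell in WT mice, with log2 fold changes from -1.77 to -1.11 and a median of -1.59. In KO mice 2 of 7 fell (Oas1b and Oas2), a share of 28.6%, near the 23.6% of all genes tested that fell. Log2 fold changes in KO mice ran from -1.14 to -0.47 over the family, with a median of -0.72. Oas1a ran from 0.821 through 1.39 to 2.29 CPM in WT mice on saline and from 0.277 through 0.544 to 1.41 CPM in WT mice on L-AC. Among KO mice the level was 0.716, 0.881, 1.25, 1.28 and 1.25 CPM on saline and 0.819, 0.529, 1.45, 0.358 and 0.741 CPM on L-AC, and these groups overlapped. Its log2 fold change was -1.26 (SE 0.36, adjusted p = 0.00578) in WT mice and -0.47 (SE 0.41, adjusted p = 0.361) in KO mice. Oas1g ran from 0.663 through 0.912 to 2.23 CPM in WT mice on saline and from 0.193 through 0.361 to 0.566 CPM in WT mice on L-AC, with no overlap. In KO mice it was 0.465, 0.965, 0.987, 1.36 and 0.751 CPM on saline and 0.750, 0.453, 0.760, 0.358 and 0.432 CPM on L-AC, and these groups overlapped. The log2 fold change of Oas1g was -1.61 (SE 0.33, adjusted p = 0.000277) in WT mice and -0.72 (SE 0.37, adjusted p = 0.108) in KO mice. Oas1a and Oas1g are near copies. Of all 100-base words of their transcripts, 40.9% of those of Oas1a are also in Oas1g and 31.2% of those of Oas1g are also in Oas1a, so reads may have been split between them. Some of these values rest on few reads, with 10 to 104 reads per library for Oas1a, 7 to 107 for Oas1g and 1 to 45 for Oas3.

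The IFIT family, which binds viral RNA and blocks its translation, held some of the largest falls. Ifit1 ran from 2.81 through 5.76 to 12.3 CPM in WT mice on saline and from 0.471 through 1.08 to 2.47 CPM in WT mice on L-AC. For KO mice the values were 2.47, 7.84, 5.63, 4.88 and 8.29 CPM on saline and 0.853, 1.17, 1.83, 1.25 and 2.16 CPM on L-AC. All L-AC mice lay below all saline mice of their genotype, at a log2 fold change of -2.46 (SE 0.37, adjusted p = 1.04e-05) in WT mice and -1.996 (SE 0.41, adjusted p = 0.000386) in KO mice. Ifit2 fell in both genotypes. Ifit3 had a log2 fold change of -2.16 (SE 0.52, adjusted p = 0.00132) in WT mice and -1.10 (SE 0.57, adjusted p = 0.114) in KO mice. Its transcripts share 31.7% of their 100-base words with Ifit3b.

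Isg15 is a ubiquitin-like protein that is joined to other proteins, Herc6 is the main ligase for it in mice and Usp18 takes it off again and also blocks the type I receptor. Isg15 ran from 2.75 through 5.15 to 8.48 CPM in WT mice on saline and from 0.798 through 0.861 to 2.26 CPM in WT mice on L-AC, with no overlap. In KO mice it was 2.47, 7.46, 4.52, 5.86 and 5.65 CPM on saline and 1.09, 1.59, 3.42, 1.61 and 1.98 CPM on L-AC. The KO groups overlapped, since KO L-AC 3 lay above the lowest KO mouse on saline. The log2 fold change of Isg15 was -2.20 (SE 0.32, adjusted p = 7.14e-06) in WT mice and -1.42 (SE 0.35, adjusted p = 0.00198) in KO mice. Usp18 ran from 2.81 through 6.31 to 9.37 CPM in WT mice on saline and from 1.38 through 2.07 to 5.09 CPM in WT mice on L-AC. The KO mice had 2.90, 8.47, 5.35, 6.18 and 6.44 CPM on saline and 2.42, 2.23, 8.91, 2.15 and 11.9 CPM on L-AC. On L-AC, 3 of 5 KO mice lay below every KO mouse on saline and the other two lay above all 5 of them. Its log2 fold change was -1.23 (SE 0.41, adjusted p = 0.0145) in WT mice and -0.08 (SE 0.45, adjusted p = 0.891) in KO mice. Herc6 fell in both genotypes.

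Among the antiviral effectors, 5 of 6 fell in WT mice and 4 of 6 in KO mice. Mx2, a dynamin-like GTPase that traps viral parts, had the largest fall of all 46 genes in each genotype. It ran from 5.78 through 10.1 to 12.2 CPM in WT mice on saline and from 0.248 through 1.05 to 2.63 CPM in WT mice on L-AC. Levels in KO mice were 4.26, 8.97, 5.30, 8.17 and 12.0 CPM on saline and 0.887, 1.10, 1.14, 1.39 and 0.988 CPM on L-AC, with no overlap in either genotype. The level on L-AC was 12.0% of that on saline for WT mice (-3.06 on the log2 scale, SE 0.37, adjusted p = 5.01e-07) and 14.2% for KO mice (-2.82, SE 0.41, adjusted p = 7.85e-06). Mx1, its neighbor on chromosome 16, had log2 fold changes of -2.60 (SE 0.42) and -2.38 (SE 0.49) at 1 to 103 reads per library. Cmpk2, a mitochondrial nucleotide kinase, and Bst2, the tether that holds budding virus at the cell surface, fell in both genotypes. Rsad2 (viperin) makes a chain-terminating nucleotide from CTP. It ran from 7.49 through 12.9 to 32.6 CPM in WT mice on saline and from 3.63 through 4.48 to 12.0 CPM in WT mice on L-AC. Among KO mice the level was 6.91, 17.2, 12.9, 8.91 and 18.3 CPM on saline and 5.42, 5.78, 27.0, 5.18 and 10.9 CPM on L-AC. The log2 fold change of Rsad2 was -1.33 (SE 0.41, adjusted p = 0.0097) in WT mice and -0.24 (SE 0.46, adjusted p = 0.683) in KO mice. Without KO L-AC 3, the library with 27.0 CPM, it was -0.91 in KO mice (adjusted p = 0.0799), and with single libraries left out the adjusted p ran from 0.0799 to 0.923. Samd9l, a restriction factor of poxviruses, did not pass the test (log2 fold change -0.28, adjusted p = 0.283 in WT and 0.03, adjusted p = 0.93 in KO).

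**Figure D2:**
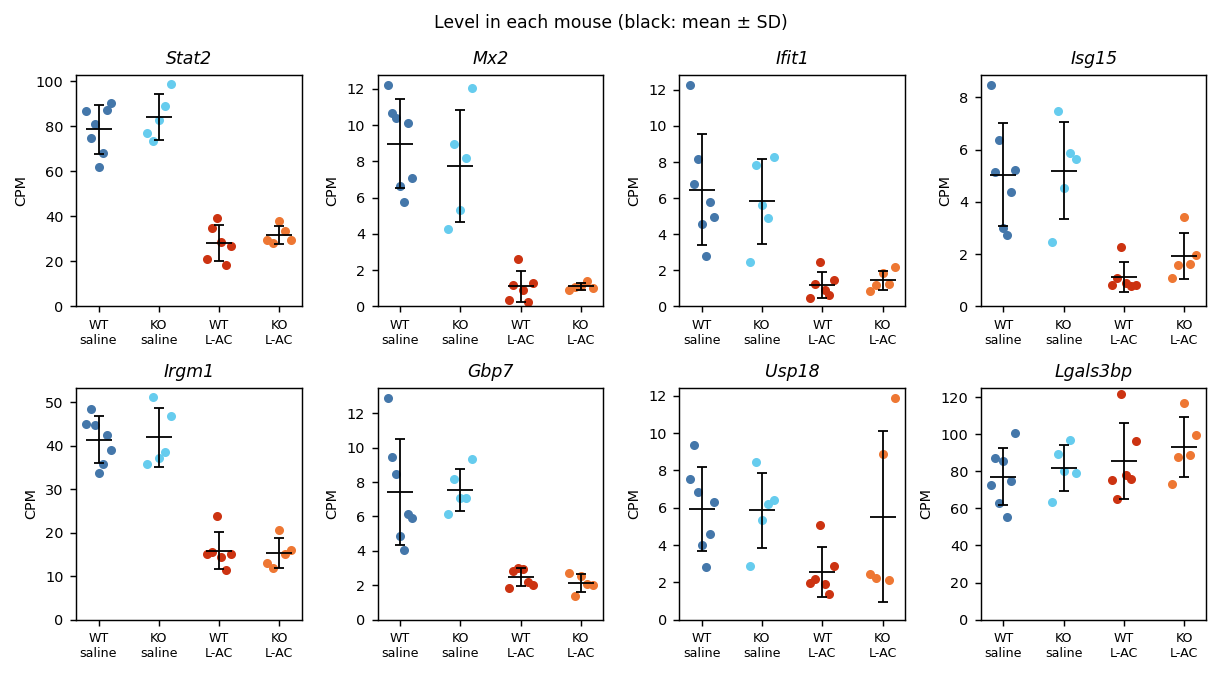
Level in CPM of 8 of the genes in each mouse by group; each point is 1 mouse and the black lines are the group mean and SD. For Stat2, Mx2, Ifit1, Irgm1 and Gbp7 no L-AC point reaches the saline points of its genotype, Usp18 in KO mice on L-AC divides into 3 low and 2 high mice, and Lgals3bp shows no fall.

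The interferon-inducible GTPases damage the vacuoles that hold intracellular microbes and are known as strong targets of interferon gamma. All 7 fell in WT mice, with log2 fold changes from -1.59 to -0.91, and 6 of 7 fell in KO mice, with a range of -1.82 to -0.80 over the family. Irgm1, a regulator of this family, ran from 33.8 through 42.6 to 48.6 CPM in WT mice on saline and from 11.5 through 15.1 to 23.9 CPM in WT mice on L-AC. For KO mice the values were 35.8, 51.4, 37.3, 38.7 and 46.8 CPM on saline and 13.1, 12.0, 20.8, 15.1 and 15.99 CPM on L-AC. The groups lay apart in both genotypes, and the log2 fold change of Irgm1 was -1.38 (SE 0.15, adjusted p = 9.33e-08) in WT mice and -1.45 (SE 0.17, adjusted p = 3.53e-07) in KO mice. Igtp (Irgm3), a regulator on the same chromosome, ran from 17.6 through 25.8 to 32.8 CPM in WT mice on saline and from 5.39 through 8.86 to 15.8 CPM in WT mice on L-AC. In KO mice it was 23.0, 33.8, 29.3, 29.9 and 30.4 CPM on saline and 9.35, 7.82, 10.8, 8.44 and 5.50 CPM on L-AC. The log2 fold change of Igtp was -1.45 (SE 0.20) in WT mice and -1.81 (SE 0.23) in KO mice, with no overlap in either.

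Gbp7, a guanylate-binding protein with both promoter cores, ran from 4.08 through 6.16 to 12.9 CPM in WT mice on saline and from 1.83 through 2.50 to 3.03 CPM in WT mice on L-AC. The KO mice had 6.16, 8.18, 7.09, 7.06 and 9.34 CPM on saline and 2.70, 1.36, 2.56, 2.07 and 2.01 CPM on L-AC. No L-AC mouse reached a saline mouse of its genotype, and the log2 fold change of Gbp7 was -1.59 (SE 0.23) in WT mice and -1.82 (SE 0.26) in KO mice. Iigp1 (Irga6), an effector GTPase that assembles on the vacuole, had the highest CPM of all 46 genes. It ran from 241 through 286 to 346 CPM in WT mice on saline and from 114 through 156 to 177 CPM in WT mice on L-AC. Levels in KO mice were 313, 251, 286, 263 and 338 CPM on saline and 81.9, 106, 195, 143 and 96.2 CPM on L-AC. These groups lay apart, at a log2 fold change of -0.91 (SE 0.16) in WT mice and -1.22 (SE 0.19) in KO mice. Irgm2, the other regulator, had log2 fold changes of -1.31 (SE 0.21) and -1.41 (SE 0.23).

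The remaining members fell in part. Of 3 genes of antigen processing, Psmb8 and Psmb9 (subunits of the immunoproteasome) fell in both genotypes, and Tap1, which carries peptides into the endoplasmic reticulum, did not pass the test (log2 fold change -0.24, adjusted p = 0.365 in WT and -0.29, adjusted p = 0.338 in KO). Psmb8 ran from 9.17 through 13.4 to 16.3 CPM in WT mice on saline and from 5.31 through 6.83 to 8.85 CPM in WT mice on L-AC. Among KO mice the level was 12.1, 14.3, 10.7, 17.8 and 13.4 CPM on saline and 6.003, 6.12, 7.91, 5.90 and 7.16 CPM on L-AC. The L-AC mice of each genotype were all below its saline mice, and the log2 fold change of Psmb8 was -0.99 (SE 0.15) in WT mice and -1.04 (SE 0.16) in KO mice. The 3 genes lie together on chromosome 17, from 34182099 to 34201454 on mm10.

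Among the PARP, DTX and TRIM proteins, which modify other proteins with ADP-ribose or ubiquitin, 4 of 4 fell in WT mice and 2 of 4 (Parp14 and Trim30a) in KO mice. Their log2 fold changes ran from -1.09 to -0.27 in WT mice, and their median there, -0.56, was the smallest fall of any role. Parp9 and Dtx3l, which work as a pair, lie on opposite strands of chromosome 16 with 334 bases of overlapping exons. The counting ignored strand and gave a read to each gene it touched, so their values are partly shared. Rtp4, a protein that helps carry receptors to the cell surface, ran from 7.52 through 8.95 to 12.3 CPM in WT mice on saline and from 1.97 through 2.52 to 6.26 CPM in WT mice on L-AC. For KO mice the values were 6.62, 14.7, 8.85, 11.0 and 9.32 CPM on saline and 2.59, 2.95, 4.76, 2.75 and 4.01 CPM on L-AC. The groups did not overlap, and its log2 fold change was -1.70 (SE 0.24, adjusted p = 4.12e-06) in WT mice and -1.56 (SE 0.27, adjusted p = 5.6e-05) in KO mice. Lgals3bp, a secreted glycoprotein, was the only one of the 46 with positive log2 fold changes in both genotypes (0.15, adjusted p = 0.417 in WT and 0.19, adjusted p = 0.367 in KO), and neither passed the test.

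**Figure D3:**
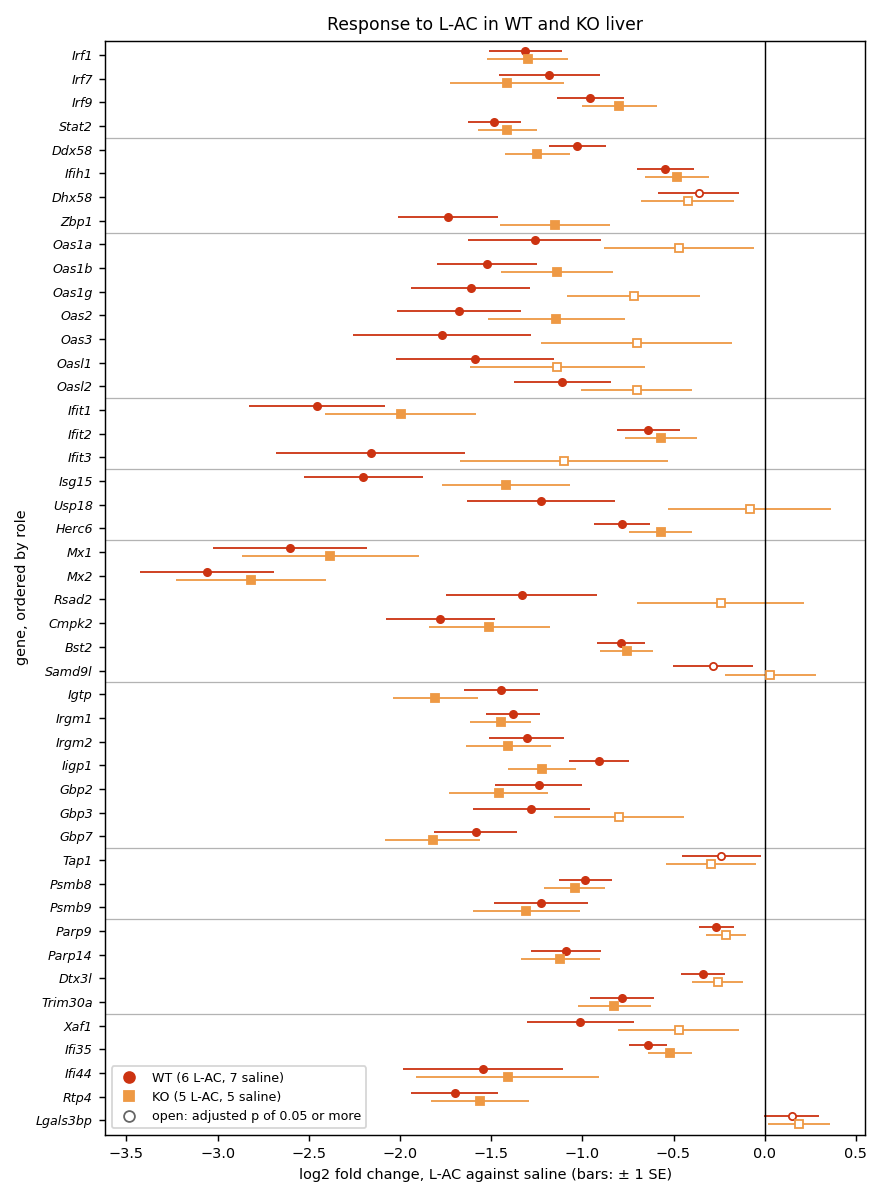
Log2 fold change of L-AC against saline for each of the 46 genes, with 1 SE either side, in WT mice (circles) and KO mice (squares); filled symbols passed the test. In WT mice 42 symbols are filled and in KO mice 30, and nearly all lie to the left of 0.

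Per kilobase of exon, the members differed widely in WT mice on saline. Bst2 was highest at 115.4 CPM per kilobase, then Iigp1 at 89.1, Lgals3bp at 35.6, Irgm1 at 18.6 and Ifi35 at 18.1, and Oas3 was lowest at 0.105. Under L-AC, Bst2 stood at 66.9 CPM per kilobase in WT mice and 66.3 in KO mice, and Iigp1 at 47.4 and 39.8. Lgals3bp, at 39.4 and 43.0, was then close to Iigp1.

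Of 41 pathway genes outside the 46, on a list of ligands, receptors, signaling proteins and brakes, 33 were tested. In each genotype 10 of these fell (30.3%) and 8 rose, near the share of all genes tested that fell (26.7% in WT and 23.6% in KO mice) and rose (26.6% and 25.2%). The reads give little on the ligands. Ifna1, Ifna2, Ifna4, Ifnb1, Ifnl2 and Ifnl3 had 0 reads in all 23 libraries, and Ifng had 6 reads in all, with 17 libraries at 0. Such a count of 0 allows up to 3 reads per library for counting error. Among the receptors, Ifnar2, a chain of the type I receptor, ran from 82.4 to 94.0 CPM in WT mice on saline and from 45.9 to 68.2 CPM in WT mice on L-AC. It ran from 78.5 to 98.2 CPM and from 46.2 to 70.6 CPM in KO mice, at log2 fold changes of -0.61 (SE 0.09) in WT and -0.64 (SE 0.10) in KO. The partner chain Ifnar1 did not pass the test in either genotype (-0.06 and 0.02), and Ifngr2, a chain of the type II receptor, rose in both. Ifnlr1, a chain of the type III receptor, rose in WT mice (1.15, SE 0.34) at 2 to 22 reads per library. In KO mice the mean of Ifnlr1 was 0.125 CPM on saline and 0.422 CPM on L-AC. Of the 6 receptors, 1 fell and 2 rose in WT mice, and 1 fell and 3 rose in KO mice.

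Of 9 kinases and transcription factors outside the 46, 5 fell and 1 rose in WT mice and 6 fell in KO mice. The counts in this paragraph stand beside 26.7% of all genes tested that fell and 26.6% that rose in WT mice. In KO mice these shares were 23.6% and 25.2%. Jak2 fell (-0.52 and -0.53), as did Irf5, a factor of myeloid cells (-1.31 and -1.06), while Jak1 did not pass the test (0.06 and -0.04). Tyk2 fell in WT mice (-0.34, SE 0.10). In KO mice the mean of Tyk2 was 27.29 CPM on saline and 21.66 CPM on L-AC. Of 10 adaptors and upstream sensors tested, 3 rose, near the share of all genes tested, and 1 fell in each genotype. Myd88, the adaptor of most Toll-like receptors, rose by 0.78 (SE 0.10) in WT mice and 0.86 (SE 0.12) in KO mice on the log2 scale. Ticam1, the adaptor of Toll-like receptor signals to interferon, rose by 0.68 (SE 0.14) and 0.89 (SE 0.16). Of 8 brakes, 3 fell and 2 rose in WT mice and 2 fell and 2 rose in KO mice. The KO counts are near the shares of all genes tested.

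**Figure D4:**
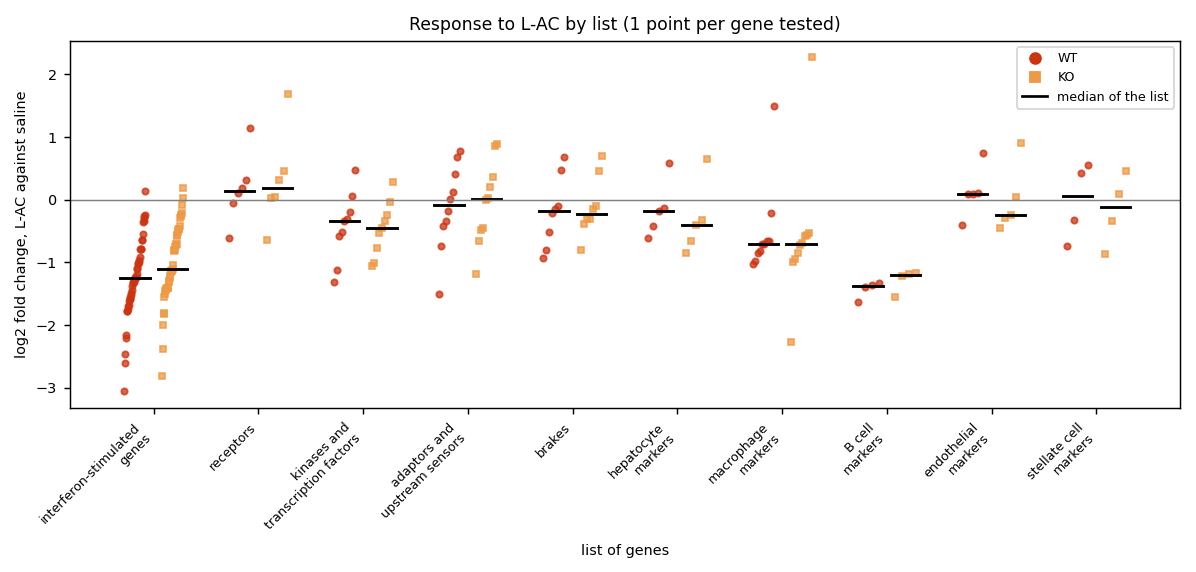
Log2 fold change of L-AC against saline for each tested gene of the interferon-stimulated genes, of the pathway lists and of marker lists of cell types, in WT (circles) and KO mice (squares); black bars are medians, and lists with fewer than 4 tested genes and the cholangiocyte markers are not drawn. The median is -1.25 and -1.11 for the 46 genes, -0.71 in both genotypes for the macrophage markers and -1.37 and -1.20 for the B cell markers.

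Loss of Ehhadh alone was not accompanied by a detectable change of these genes. On saline, 0 of the 46 were called between KO and WT mice by edgeR, beside 0.0141% of all genes tested, and 0 had an unadjusted p under 0.05, beside 1.86% of all genes. DESeq2 and limma-voom also called 0. The median log2 difference, KO minus WT, was -0.02. The smallest p belonged to Oas1a, at a log2 difference of -0.50 (SE 0.37, adjusted p = 1). On L-AC, 0 were called by edgeR, DESeq2 or limma-voom, beside 0.0141% of all genes for edgeR. In that comparison Usp18 (1.13, SE 0.43, adjusted p = 0.987) and Isg15 (0.82, SE 0.35, adjusted p = 1) had an unadjusted p under 0.05, which are 2 of 46 beside 4.53% of all genes. The median difference on L-AC was 0.12, with 32 of 46 above 0, beside a median of 0.007 and 7418 of 14196 for all genes tested.

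The response to L-AC was not shown to differ between genotypes for any of the 46. The 12 genes called in WT mice and not in KO mice were Oas1a, Oas1g, Oas3, Oasl1, Oasl2, Ifit3, Usp18, Rsad2, Gbp3, Parp9, Dtx3l and Xaf1, 0 were called in KO mice alone, and 4 in neither. The test of the difference, the interaction of genotype and L-AC, called 0 of 46 by edgeR, DESeq2 and limma-voom, beside 0% of all genes. At an unadjusted p under 0.05, edgeR gave 0, beside 2.25% of all genes. The smallest p belonged to Usp18, whose log2 response in KO mice was higher than in WT mice by 1.14 (SE 0.60, 2 SE either side from -0.06 to 2.34, adjusted p = 1). The interval for Ifit1 ran from -0.62 to 1.54, that for Mx2 from -0.82 to 1.30, and that for Irgm1 from -0.50 to 0.37. At this number of mice, the intervals of Ifit1 and Mx2 thus still held a fall that is smaller by 1 log2 unit in KO mice. A call at the adjusted threshold would need a difference of more than 2 SE. Point estimates for the 46 genes had a median of 0.13, beside 0.02 for all genes. They lay above 0, toward a smaller fall in KO mice, for 32 of 46, beside 7677 of all 14196 genes tested. By role this held for 7 of 7 OAS genes (median 0.53) and for 1 of 7 GTPases (median -0.22), a difference between roles that was not tested. Across the 46 genes the Pearson correlation of the WT and KO log2 fold changes was 0.808. These responses share no library, but the genes share each mouse and are not independent.

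The size of the KO estimates rests in part on single mice. Of the 6 WT mice on L-AC, WT L-AC 3 was highest in 42 of 46 genes, with a median of 0.66 log2 units above the mean of its group. Of the 5 KO mice on L-AC, KO L-AC 3 was highest in 35 of 46, with a median of 0.39 above. These counts were not made over all genes tested, so whether the shift is particular to the members was not tested. Relative to the mean of WT mice on saline, the median of the 46 genes stood at -0.38 for WT L-AC 3 and at -0.40 for KO L-AC 3, and from -1.31 to -0.85 in the remaining L-AC mice. KO L-AC 3 also had the highest Cd68 (66.0 CPM, beside 7.29 to 17.9 CPM in the other KO mice on L-AC). Its macrophage marker sum (195 CPM), which includes Cd68, was the highest of its group. Its Ptprc (2.865 CPM, beside 1.251 to 4.229 CPM over its group) was not the highest. Nor was its B cell marker sum (0.7595 CPM, beside 0.463 to 4.025 CPM over its group). WT L-AC 3 had a macrophage marker sum of 134.7 CPM, beside 72.7 to 136 CPM over its group. Its B cell marker sum (1.616 CPM) and its Ptprc (4 CPM) were the highest of its group. Without KO L-AC 3, 34 members fell in KO mice, beside 21.8% of all genes tested in that fit, and the median of the interaction was 0.01. Without WT L-AC 3, the median of the interaction was 0.22, and 12 members had an unadjusted p under 0.05 between KO and WT mice on L-AC in place of 2, beside 5.11% of all genes tested in that fit, and 0 were called. Without WT saline 1, WT L-AC 3 and KO L-AC 3 together, which were chosen after the members' values were seen, 42 members fell in WT mice, beside 27.5% of all genes tested in that fit, and 38 in KO mice, beside 22.5%.

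On saline, too, some mice were lowest or highest of their group in many of the members. KO saline 1 was the lowest of its group in 37 of 46 genes and WT saline 5 in 29 of 46, and WT saline 1 was the highest of its group in 16. The same counts over all genes tested were not made. The ratio of the highest to the lowest mouse had a median over genes of 2.03 in WT mice on saline, 1.79 in KO mice on saline, 2.77 in WT mice on L-AC and 1.97 in KO mice on L-AC.

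**Figure D5:**
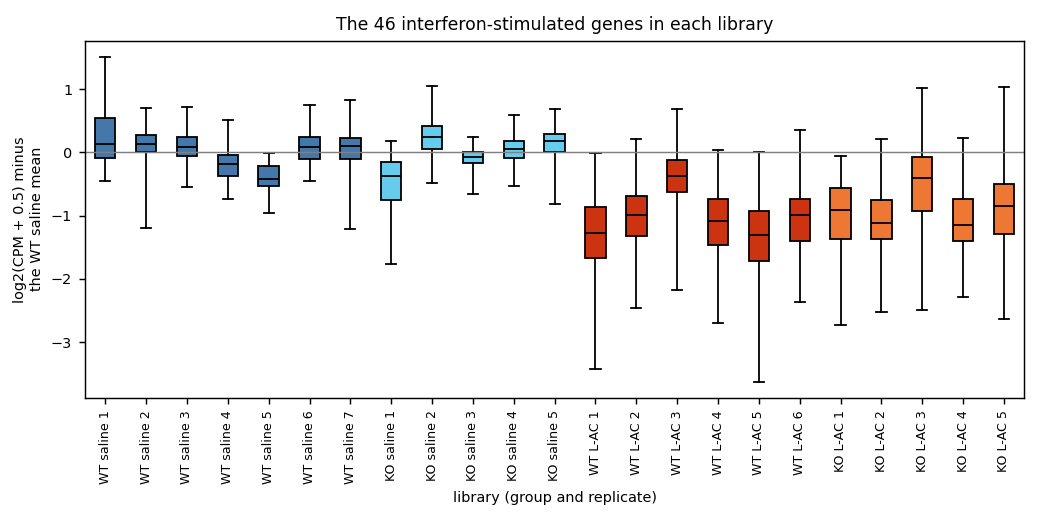
Distribution of the 46 genes in each library as log2(CPM + 0.5) minus the mean of the WT mice on saline; the box spans the quartiles, the line is the median and the whiskers reach the lowest and highest gene. The medians of WT L-AC 3 (-0.38) and KO L-AC 3 (-0.40) lie above those of the other L-AC mice and near the lowest saline medians (-0.41 in WT saline 5 and -0.38 in KO saline 1).

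The members lie on 15 chromosomes, and 6 of them share chromosome 16 with Ehhadh. Rtp4 is nearest, at 1.85 Mb, then Parp14, Dtx3l and Parp9 at 14.1 to 14.2 Mb, and Mx1 and Mx2 at 75.7 and 75.8 Mb. By edgeR, none of the 6 was called between KO and WT mice on either treatment.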

How the data were processed

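PolyA RNA of liver was sequenced as 100-nucleotide single-end reads, per the labels' protocols. The deposited values are raw counts of reads per gene, made by the authors with featureCounts 1.4.4 over exons of UCSC mm10 genes, without regard to strand, keeping primary alignments and counting a read for each gene it overlapped, per the file headers. STAR 2.4.0 is named in the submitters' processing notes, and coordinates are mm10 (GRCm38). No normalization by the authors is in these values.

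Low counts were filtered with edgeR's filterByExpr, given the groups, at its defaults (count 10, total 15). This kept 14196 of 24062 genes. The quasi-likelihood test of edgeR 4.0.16 (R 4.3.3) was run on TMM-scaled counts (factors 0.93 to 1.10), with the 4 group means as the model and all 23 libraries in the fit. All p-values are two-sided and Benjamini-Hochberg adjusted over all genes tested within each of 5 comparisons: L-AC against saline in WT and in KO mice, KO against WT on each treatment, and the interaction. The comparisons share groups. SE is that of a log2 fold change, and CPM are taken over the scaled library size. The labels name separate mice but number no animals across groups and give no batch. Replicates are numbered in accession order, so numbers do not pair mice.

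The members and lists were chosen with earlier results of these data known. In the comparisons of L-AC with saline, the 10 called members with the smallest p and up to 5 called pathway genes were to be named, and elsewhere the member with the smallest p. Other genes with values, such as Rsad2, Oas1g, Ifit3, Mx1, Lgals3bp and the members that missed the test, were named after their values were seen. Adgre1 and Ly6g of the marker lists were not matched. One pathway gene that the rule takes is not reported here. Alternatives were DESeq2 size factors in edgeR, DESeq2 1.42.0, limma-voom (limma 3.58.1), no filter on low counts, 1 CPM in 5 libraries, age as a covariate, a fit without the other groups, a threshold of 0.01 and each library left out in turn. Leaving out 3 libraries together was added after seeing the data. The fits were tested on simulated data. Promoter windows are from RefSeq, and shared 100-base words are from GENCODE M21 transcripts.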

Additional observations from a re-analysis of the deposited data

Results flagged for a closer look

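A library was picked out when its gap to the nearest mouse of its group, divided by the range of the group, passed the 95% critical value of Dixon's test. This happened in 22 of 184 series of values (46 genes in 4 groups). The critical value is set for about 1 in 20 by chance in independent series of normal values. The genes share each mouse and the CPM were not transformed, so the 22 cannot be set against that rate. All 22 lay above their group.

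WT L-AC 3 accounts for 15 of them. In this mouse Irf7 stood at 17.05 CPM, beside 5.17 to 8.60 in the other WT mice on L-AC. Zbp1 was at 1.98 CPM (others 0.809 to 1.08), Oas2 at 1.333 (others 0.426 to 0.664) and Oasl1 at 5.454 (others 1.47 to 2.39). Isg15 was at 2.263 CPM (others 0.798 to 1.09), Mx1 at 0.7273 (others 0.138 to 0.293), Cmpk2 at 5.333 (others 1.404 to 2.77) and Bst2 at 74.91 (others 43.6 to 49.98). Samd9l was at 9.616 CPM (others 4.45 to 6.28), Irgm1 at 23.88 (others 11.5 to 15.5), Irgm2 at 33.29 (others 11.9 to 19.6) and Gbp2 at 1.859 (others 0.936 to 1.24). Gbp3 was at 2.909 CPM (others 0.771 to 1.47), Ifi44 at 1.293 (others 0.126 to 0.490) and Rtp4 at 6.263 (others 1.97 to 2.74).

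WT saline 1 accounts for 5. Ddx58 stood at 28.33 CPM there (others 18.2 to 20.2), Ifih1 at 33.12 (others 17.2 to 22.1), Herc6 at 13.88 (others 6.54 to 9.63), Rsad2 at 32.62 (others 7.49 to 14.7) and Xaf1 at 3.781 (others 1.45 to 2.32). In KO L-AC 3, Rsad2 was at 27.0 CPM, beside 5.18 to 10.9 in the other KO mice on L-AC. In KO saline 5, Dtx3l was at 63.77 CPM, beside 51.9 to 54.1 in the other KO mice on saline.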

How the results depend on the processing

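Over all alternatives, including each library left out in turn, 39 to 42 members fell in WT mice and 26 to 38 in KO mice. With single libraries left out the counts were 40 to 42 and 27 to 34, and 0 rose under any alternative. The share of all genes tested that fell also moved, from 19% to 28.2% in WT mice and from 16.4% to 25.7% in KO mice. KO against WT mice on either treatment and the interaction called 0 under every alternative run. At the threshold of 0.05, 40 members in WT mice and 26 in KO mice were called under each of 32 settings that tested them. The same count over all genes tested was not made. Samd9l in KO mice (0.03) turned to -0.038 by limma-voom, to -0.0059 with age as a covariate and to -0.22 with WT saline 1, WT L-AC 3 and KO L-AC 3 left out together, and ran from -0.22 to 0.17 with single libraries left out. Usp18 in KO mice (-0.08) ran from -0.58 to 0.12 with single libraries left out. In WT mice the calls of Dtx3l and Parp9 were lost without WT L-AC 4 or WT L-AC 5. That of Dtx3l was also lost without WT L-AC 1, and that of Parp9 without WT saline 1. In KO mice the calls of Oas2 and Ifi44 were lost with age as a covariate, and those of Ifih1, Ifit2 and Ifi44 without some single mice. With the same 3 libraries left out together, Dhx58, Oas3, Oasl1, Oasl2, Rsad2, Gbp3, Parp9 and Xaf1 became called in KO mice, but those libraries were chosen on the values of these genes. The cause was not tested. No scaling moved the median of all genes by more than 0.1 log2 units. No paired analysis was possible because the labels give no number that ties mice across groups. Oas3, Mx1 and Ifi44 had few reads, down to 1 in a library, which limits their precision.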
